A study of Poecilia reticulata with 6 samples.

Results

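The PI3-kinase subunit genes were taken from the guppy intestine expression table as every row whose gene name, in lower case, begins with pik3c or pik3r. The rule found 10 genes of the 10389 in the table, 5 with pik3c names for catalytic subunits and 5 with pik3r names for regulatory subunits. No row carried the name pik3ca, pik3c3 or pik3r3. The class I catalytic sums below therefore do not include pik3ca, and the class IA regulatory sums do not include pik3r3. RNA-seq had been run on the intestine of adult wild-type Poecilia reticulata, with 2 libraries at 0‰, 2 at 18‰ and 2 at 35‰ salt, 6 in all. GEO's sample labels write the salt as percent and the series design as permille, which is used here. Salt was added to the tanks in steps, so 35‰ was reached later than 18‰. When the fish of each salinity were sampled is not stated, so salinity cannot be told apart from time in the experiment. How many fish went into each library is not stated, so the spread between libraries may be technical. Values are TPM, which are scaled for transcript length, so levels of different genes can be compared.

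PI3-kinases are lipid kinases that phosphorylate membrane phosphoinositides and so recruit proteins such as Akt. Class IA enzymes pair a catalytic subunit, among them pik3cb and pik3cd, with an adaptor-type regulatory subunit such as pik3r1 or pik3r2, and are switched on by growth factor receptors. The class IB catalytic subunit pik3cg works with pik3r5 and responds to G protein-coupled receptors. Class II enzymes, pik3c2b and pik3c2g, have no regulatory subunit of this kind, and pik3r4 is the scaffold of the class III complex that serves autophagy and endosome traffic. In mammals, pik3cd, pik3cg and pik3r5 are best known from leukocytes, whereas pik3cb and pik3r1 are widely expressed.

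The paper counts pik3cb among the genes upregulated under salt in its transcriptome analysis, which used DESeq2. That test was not repeated here, where TPM were tested with limma instead. The study also followed pik3cb with its own guppy oligonucleotides, by qRT-PCR of the transcript and by chromatin immunoprecipitation at the promoter. They are printed here as the study lists them, with the promoter pair under the label promoter(-1kb). Their place on the transcript or the genome was not checked. Neither of those assays was analysed here.
pik3cb transcript, forward: cagtcctgaagctggtgaca
pik3cb transcript, reverse: tttgcactcgttgcatcttc
pik3cb promoter, forward: gtgcgtttatggaccaggac
pik3cb promoter, reverse: gcacaaccgagatgcaatta
Each of the primers is 20 bases long. The forward primers hold 11 G or C and the reverse primers 9, and no base is set in capitals because no part was singled out.

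The summed TPM of the table was 419412 to 481864 per library, so it covers part of each library, and TPM keeps no read depth. Of 19 enterocyte markers sought, 8 were in the table, and 7 passed the expression filter. Summed over the 8, TPM was 10950 in 0‰ replicate 1 and between 20904 and 26722 in the other libraries. Most of each sum was apoa1b, with 7262 TPM in 0‰ replicate 1 and 14122 to 20930 elsewhere. The markers slc15a1b, fabp1b.1, cdh17 and mep1a.1 were also lowest in that library. The markers alpi.2 and anpepb were not, with 167 and 1391 TPM there against 114 and 878 in 35‰ replicate 1. Of 27 leukocyte markers sought, 9 were in the table. They summed to 849 TPM in 0‰ replicate 1, against 277 to 402 elsewhere, with 7 of the 9 highest in that library. The 4 liver markers found, of 15 sought, summed to 1588 in 0‰ replicate 2 and to 37.2 or less elsewhere. The 3 pancreas markers found, of 15 sought, summed to 9.41 and 78.2 at 35‰, against 2559 to 9860 at 0‰ and 18‰. In bulk tissue, fewer cells of a type and less RNA per cell cannot be told apart.

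None of the 10 subunit genes passed the test in any comparison. The test was limma on log2(TPM + 1), over the 7897 genes that reached 1 TPM in 2 or more libraries, all 10 subunit genes among them. Calls needed a fold change above 1.5 and an adjusted p (Benjamini-Hochberg) under 0.05. The added 1 shrinks the fold change of weakly expressed genes. The background was low too in this limma test. At the same cutoffs, the paper's DESeq2 analysis called many more genes over its pairwise comparisons. With limma, the share of all genes called was 0.19% in 35‰ versus 0‰, 0.317% in 35‰ versus 18‰ and 0.0127% in 18‰ versus 0‰. The smallest change among the genes called in 35‰ versus 0‰ was 2.41 on the log2 scale, and among subunit genes the sizes went up to 0.90 (pik3cd, at −0.90). At an unadjusted p under 0.05, 1 subunit gene passed in 35‰ versus 0‰, where 11.3% of all genes did. No subunit gene did so in 35‰ versus 18‰ or in 18‰ versus 0‰, where 12.5% and 5.93% of all genes did.

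**Figure D1:**
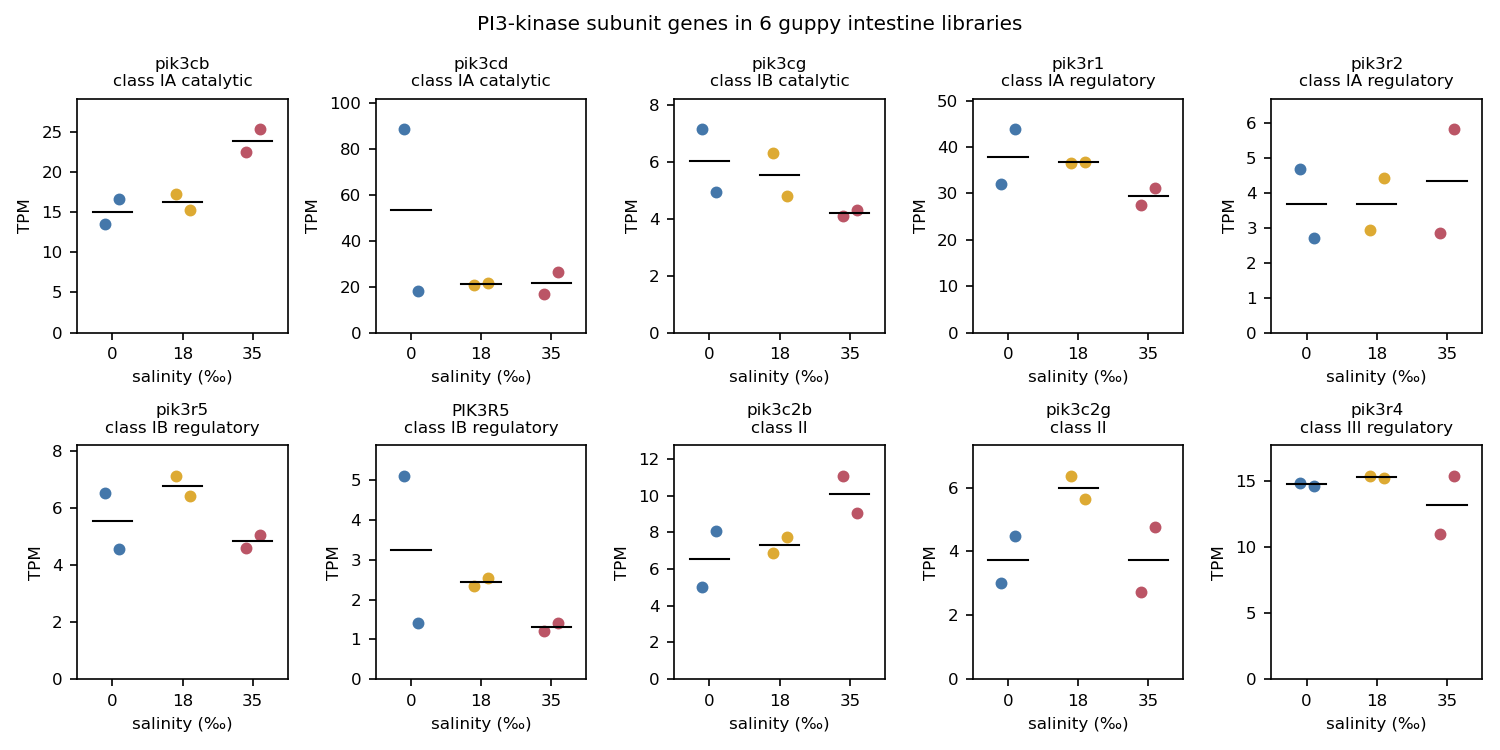
TPM of each subunit gene (y axis, from 0, a different scale in each panel) at 0‰, 18‰ and 35‰ (x axis); points are the 2 libraries of a salinity and bars their mean. The pik3cb and pik3c2b panels are the ones in which both 35‰ points lie above the 4 others, and a point of 88.4 TPM at 0‰ sets the scale for pik3cd.

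The subunit gene with an unadjusted p under 0.05 was pik3cb (ENSPREG00000011211), which encodes the class IA catalytic subunit beta. Its TPM was 13.5 and 16.6 at 0‰, 17.2 and 15.3 at 18‰, and 22.5 and 25.3 at 35‰. Both 35‰ libraries stood above all 4 others, and the 0‰ and 18‰ libraries overlapped. The mean was 23.9 ± 1.97 TPM at 35‰, against 15.0 ± 2.18 at 0‰ and 16.3 ± 1.36 at 18‰ (SD, n = 2 each).

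In 35‰ versus 0‰ the log2 fold change of pik3cb was 0.64 (standard error 0.23), a fold of 1.56 with an unadjusted 95% interval from 1.07 to 2.25. The limma p was 0.0259, and 0.367 after Benjamini-Hochberg adjustment over all 7897 genes, so the difference was not called. The log2 fold change was 0.50 without 0‰ replicate 1 and 0.78 without 0‰ replicate 2. By p-value, 7.03% of all genes lay ahead of pik3cb, and 6.7% had a larger positive fold change. In 35‰ versus 18‰ the log2 fold change was 0.53 (limma adjusted p = 0.4), with an interval from −0.01 to 1.06. In 18‰ versus 0‰ it was 0.11 (limma adjusted p = 0.995), with an interval from −0.42 to 0.65. The moderated F test over the 3 salinities gave an adjusted p of 0.446 in limma. A pattern in which both 35‰ libraries exceed every other library was common, since 10.6% of the genes tested had it.

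The pattern of pik3cb had 1 counterpart among the 9 other subunit genes. The class II kinase gene pik3c2b (ENSPREG00000021267) had a TPM of 5.02 and 8.1 at 0‰, 6.88 and 7.76 at 18‰, and 11.1 and 9.07 at 35‰. Here too both 35‰ libraries were above all others, while 0‰ and 18‰ overlapped. For 35‰ versus 0‰ the log2 fold change was 0.58 (interval −0.08 to 1.23, limma adjusted p = 0.48), and for 35‰ versus 18‰ it was 0.41 (limma adjusted p = 0.577). The value for 35‰ versus 0‰ was 0.28 without 0‰ replicate 1 and 0.87 without 0‰ replicate 2.

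**Figure D2:**
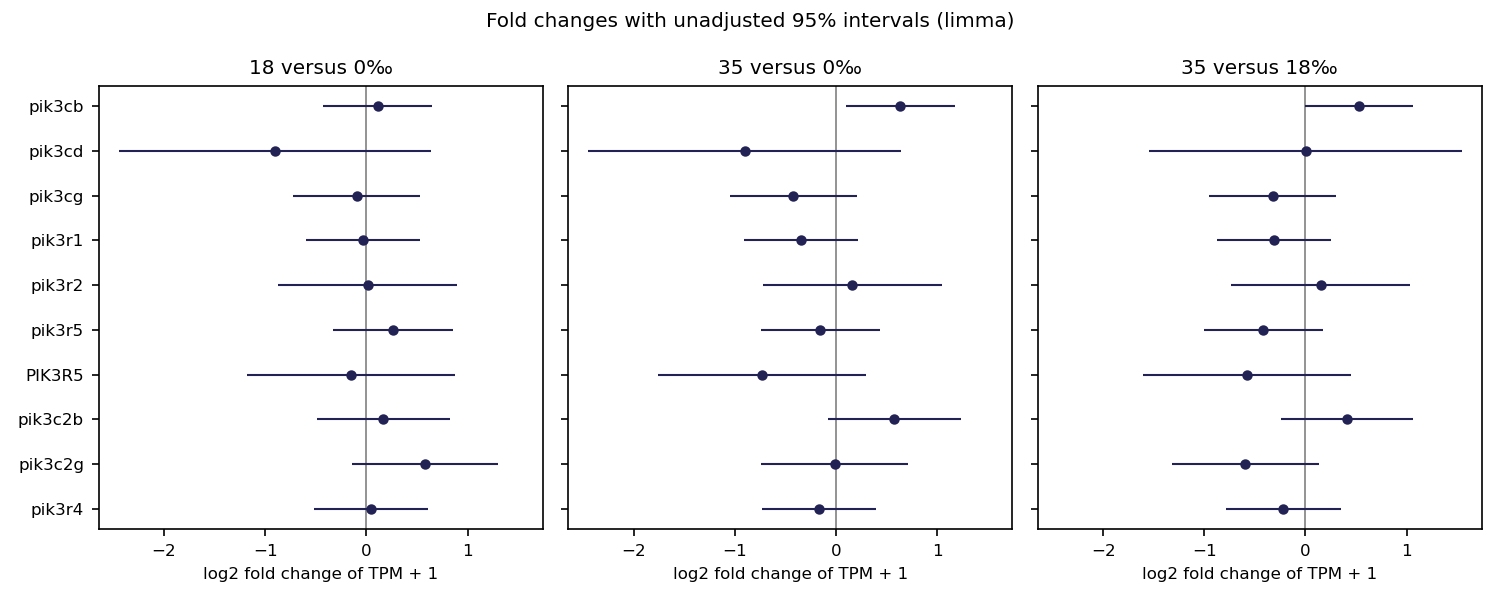
Log2 fold change of TPM + 1 from limma (x axis) for each subunit gene (y axis) in 18‰ versus 0‰, 35‰ versus 0‰ and 35‰ versus 18‰; points are estimates and bars unadjusted 95% intervals. The pik3cb interval in 35‰ versus 0‰, from 0.10 to 1.17, is the only one of the 30 that does not cross 0.

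Across the family, directions were mixed. In 35‰ versus 0‰, 3 of the 10 genes had a positive log2 fold change and 7 a negative one, with a median of −0.16 beside −0.01 over all genes tested. The family median was 0.0040 without 0‰ replicate 1 and −0.36 without 35‰ replicate 2, so neither its sign nor its size was steady. Both 35‰ libraries were above both 0‰ libraries for 2 of the 10, where 18.9% of all genes did so, and below them for 2, where 20% did. In 35‰ versus 18‰, the libraries were separate upward for 2 genes (background 18.7%) and downward for 5 (background 29%), with a median log2 fold change of −0.27 beside −0.07 over all genes. In 18‰ versus 0‰ they were separate upward for 2 genes (background 24.7%) and downward for 0 (background 12.8%), with medians of 0.03 and 0.06.

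Among the class I catalytic subunits, pik3cd and pik3cg did not share the order seen for pik3cb. The pik3cd gene (ENSPREG00000015459), for the subunit delta, had a TPM of 88.4 and 18.0 at 0‰, 20.8 and 21.4 at 18‰, and 16.7 and 26.5 at 35‰. Its value in 0‰ replicate 1 was 3.33 times the next highest, and the other 5 libraries lay between 16.7 and 26.5 TPM. The log2 fold change in 35‰ versus 0‰ was −0.90 (interval −2.45 to 0.64, limma adjusted p = 0.64). Without 0‰ replicate 1 it was 0.21 (limma adjusted p = 0.918), and without 0‰ replicate 2 it was −2.02 (limma adjusted p = 0.061), so the sign and size rested on which 0‰ library was kept. These are the highest and the lowest adjusted p over the alternatives run for this comparison.

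The class IB subunit gene pik3cg (ENSPREG00000015272) had a TPM of 7.13 and 4.94 at 0‰, 6.3 and 4.78 at 18‰, and 4.08 and 4.31 at 35‰. Both 35‰ libraries were below the other 4, the reverse of pik3cb. The share of all genes with this order was not computed. Separate downward were 20% of all genes in 35‰ versus 0‰ and 29% in 35‰ versus 18‰. The log2 fold change was −0.42 in 35‰ versus 0‰ (interval −1.05 to 0.21, limma adjusted p = 0.584) and −0.32 in 35‰ versus 18‰ (limma adjusted p = 0.646). Leaving out 0‰ replicate 1 gave −0.19 and leaving out 0‰ replicate 2 gave −0.65 in 35‰ versus 0‰. Likewise, the 35‰ versus 18‰ value was −0.15 without 18‰ replicate 1 and −0.49 without 18‰ replicate 2.

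Regulatory subunits showed no counterpart of the pik3cb order. The main class IA adaptor gene, pik3r1 (ENSPREG00000019686), had a TPM of 32.1 and 43.8 at 0‰, 36.5 and 36.8 at 18‰, and 27.5 and 31.2 at 35‰. Its 35‰ libraries lay below all 4 others, the highest of them at 31.2 against 32.1 in the lowest 0‰ library. As for pik3cg, the share of all genes with this order was not computed. The log2 fold change in 35‰ versus 0‰ was −0.34 (interval −0.91 to 0.22, limma adjusted p = 0.619), with −0.56 when 0‰ replicate 1 was left out and −0.13 when 0‰ replicate 2 was. The second class IA adaptor gene, pik3r2 (ENSPREG00000009679), ranged from 2.71 to 5.83 TPM and overlapped in every comparison, with a log2 fold change of 0.16 in 35‰ versus 0‰ (interval −0.72 to 1.05).

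For class IB, the table holds a pair of regulatory genes under the same name. The gene written pik3r5 (ENSPREG00000016844) had a TPM of 6.53 and 4.57 at 0‰, 7.12 and 6.43 at 18‰, and 4.6 and 5.06 at 35‰. Its namesake, written PIK3R5 (ENSPREG00000015082) had a TPM of 5.11 and 1.4 at 0‰, 2.35 and 2.54 at 18‰, and 1.2 and 1.42 at 35‰. For both, the 35‰ libraries were below both 18‰ libraries and overlapped with the 0‰ libraries, and PIK3R5 was 2.01 times as high in 0‰ replicate 1 as in its next highest library. The log2 fold change in 35‰ versus 0‰ was −0.15 for pik3r5 (interval −0.74 to 0.44) and −0.73 for PIK3R5 (interval −1.76 to 0.29). Without 0‰ replicate 1 these were 0.065 for pik3r5 and −0.057 for PIK3R5, and without 0‰ replicate 2 they were −0.37 for pik3r5 and −1.40 for PIK3R5. How the authors' counting divided reads between the pair is not stated, so their separate levels are uncertain.

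The remaining members belong to class II and class III. The pik3c2g gene (ENSPREG00000016601) had a TPM of 3 and 4.47 at 0‰, 6.37 and 5.64 at 18‰, and 2.72 and 4.77 at 35‰. Both 18‰ libraries lay above the other 4, an order whose share over all genes was not computed. Separate upward were 24.7% of all genes in 18‰ versus 0‰, and separate downward were 29% in 35‰ versus 18‰. The log2 fold change in 18‰ versus 0‰ was 0.58 (interval −0.14 to 1.30, limma adjusted p = 0.941). It was 0.35 without 0‰ replicate 1 and 0.81 without 0‰ replicate 2. The class III scaffold gene pik3r4 (ENSPREG00000014605) had a TPM of 14.8 and 14.6 at 0‰, 15.4 and 15.2 at 18‰, and 10.99 and 15.3 at 35‰. Both 18‰ libraries were above both 0‰ libraries, by a log2 fold change of 0.05, and 35‰ replicate 1 was the lowest of the 6.

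By median TPM over the 6 libraries, pik3r1 came first at 34.3, followed by pik3cd at 21.1, pik3cb at 16.9 and pik3r4 at 15.0. Lower down were pik3c2b at 7.93, pik3r5 at 5.75, pik3cg at 4.86, pik3c2g at 4.62, pik3r2 at 3.69 and PIK3R5 at 1.89. Every neighbour in this order overlapped the next in range. Between neighbours, the higher gene was above the lower one in 3 to 5 of the 6 libraries.

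**Figure D3:**
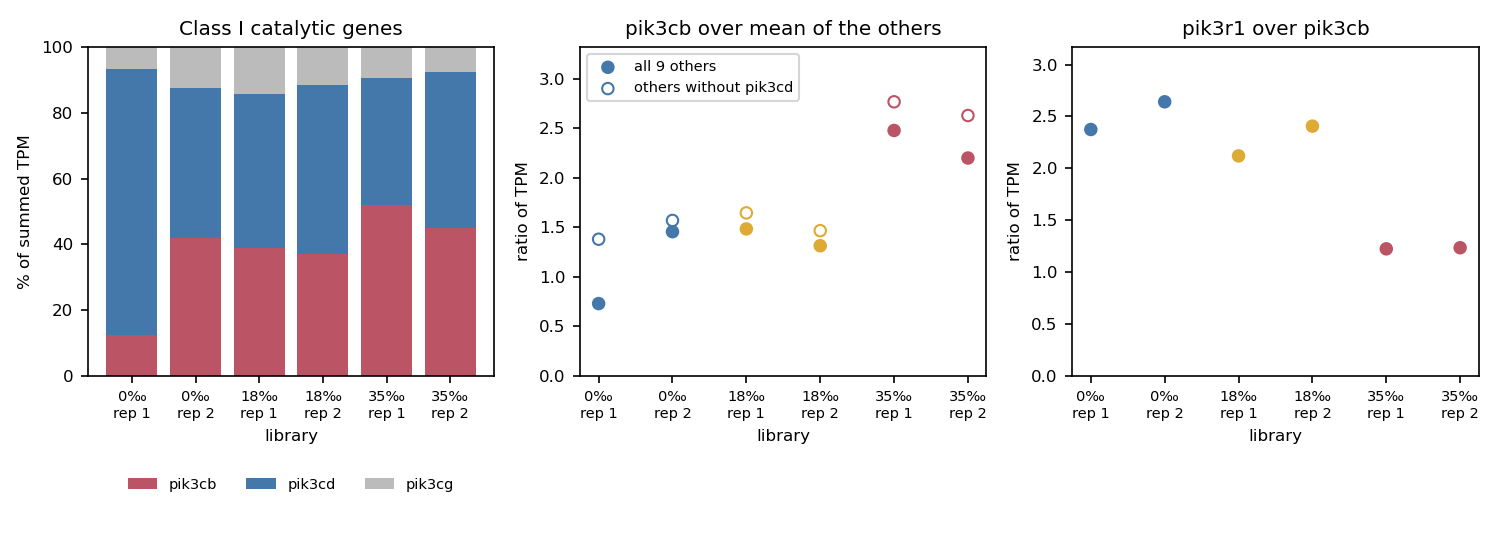
Left, share of the summed TPM of pik3cb, pik3cd and pik3cg taken by each (y axis, percent) in each library (x axis); middle, pik3cb TPM divided by the mean TPM of the 9 other subunit genes (filled) or of the 8 without pik3cd (open); right, pik3r1 TPM divided by pik3cb TPM. The 35‰ libraries are the highest in the middle panel, at 2.48 and 2.2, and the lowest on the right, at 1.22 and 1.23.

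Set against its own family within each library, pik3cb stood highest at 35‰. Its TPM was 0.729 and 1.45 times the mean of the 9 other subunit genes at 0‰, 1.48 and 1.31 times at 18‰, and 2.48 and 2.2 times at 35‰. Leaving pik3cd out of the mean, a choice made after its values were seen, gave 1.38 and 1.57 at 0‰, 1.64 and 1.46 at 18‰, and 2.77 and 2.63 at 35‰. In either version the 35‰ libraries did not overlap with the rest. Exact two-sided permutation tests of 2 libraries against 2 gave p = 0.33 in 35‰ versus 0‰ and in 35‰ versus 18‰, the smallest p this design allows. These tests are not independent evidence on pik3cb, because the paper had already counted it as upregulated in the same libraries. On the log2(TPM + 1) scale, which weighs the members more evenly, pik3cb minus the mean of the others was 0.40 and 1.08 at 0‰. It was 0.95 and 0.77 at 18‰, and 1.67 and 1.52 at 35‰. The TPM of pik3cb was highest at 35‰, and that of pik3r1, the most expressed member by median, was lowest there. The order of the ratio therefore follows in part from values already seen.

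As a share of the summed TPM of the class I catalytic genes measured, pik3cb took 12.4% and 41.9% at 0‰, 38.9% and 36.9% at 18‰, and 52% and 45% at 35‰. Its mean share was 48.5 ± 4.91% at 35‰, against 27.2 ± 20.9% at 0‰ (SD, n = 2 each, exact permutation p = 0.33). As for the ratio to the family, pik3cb was chosen with its values known, so this test is not independent evidence either. The low share of 12.4% belongs to the library with 88.4 TPM of pik3cd. Without that library the difference between 35‰ and 0‰ shrank to 6.58 percentage points, where it was 21.4 with all libraries, and without 0‰ replicate 2 it was 36.1 points.

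The ratio of the adaptor pik3r1 to pik3cb was looked at after the values of both were known. Since pik3r1 was below and pik3cb above all 4 other libraries at 35‰, its order follows from theirs and is given as a description with no test. It was 2.37 and 2.64 at 0‰, 2.12 and 2.41 at 18‰, and 1.22 and 1.23 at 35‰. With pik3r2 and pik3cd added to the sums, the regulatory to catalytic ratio was 0.361 and 1.34 at 0‰, 1.04 and 1.13 at 18‰, and 0.776 and 0.715 at 35‰. This wider ratio overlapped between 35‰ and 0‰ (exact permutation p = 1), where the difference of −0.107 became −0.599 without 0‰ replicate 1 and 0.385 without 0‰ replicate 2. It was lower at 35‰ than at 18‰ (exact permutation p = 0.33, the smallest this design allows). That order follows in part from the pik3r1 and pik3cb values already seen, so the test is not independent evidence.

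**Figure D4:**
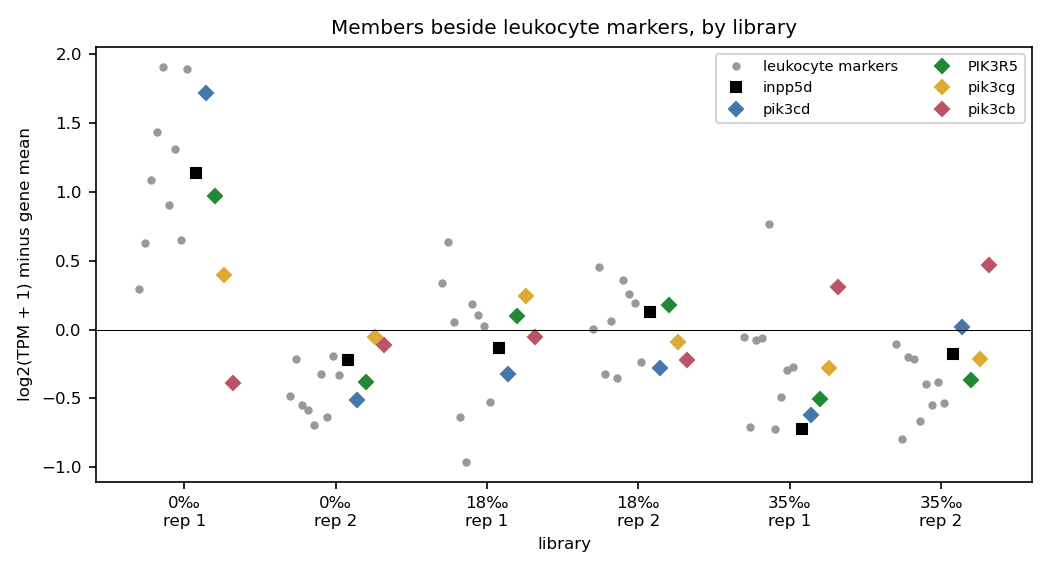
Log2(TPM + 1) of each gene minus its mean over the 6 libraries (y axis) in each library (x axis), for 9 leukocyte markers (grey), inpp5d (black squares) and 4 subunit genes (coloured diamonds). In 0‰ replicate 1, pik3cd and PIK3R5 lie within the range of the markers, all above 0, and pik3cb lies below 0.

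The library that set the 0‰ values of pik3cd and PIK3R5 was also the one with the most leukocyte marker RNA. In 0‰ replicate 1, pik3cd was 4.28 times its mean over the other libraries, PIK3R5 2.87 times and pik3cg 1.46 times. The other class IB regulatory gene, pik3r5, was at 1.18 times there, below pik3r2 at 1.25 times. The leukocyte antigen ptprc had a TPM of 229 in that library, against 53.7 to 87.7 in the others, and the myeloid factor spi1b had 125, against 22.5 to 27.9. The inpp5d gene, which encodes a blood cell phosphatase acting on the PI3-kinase product, had a TPM of 25 there and 6.16 to 11.9 elsewhere. In that same library pik3c2b was at 0.585 times its mean over the others, pik3c2g at 0.626 times, pik3cb at 0.697 times and pik3r1 at 0.911 times. The part of cell makeup in these differences was not tested.

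The rest of the pathway was read from 8 lists with 75 genes in the table, of which 65 passed the filter. None of the 65 was called in any comparison. In 35‰ versus 0‰, 5 had an unadjusted p under 0.05 (11.3% of all genes tested), 8 were separate upward between libraries (18.9%) and 7 downward (20%). In 18‰ versus 0‰, 5 had such a p (5.93% of all genes tested), 23 were separate upward (24.7%) and 3 downward (12.8%). In 35‰ versus 18‰, 9 had such a p (12.5% of all genes tested), 7 were separate upward (18.7%) and 16 downward (29%).

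**Figure D5:**
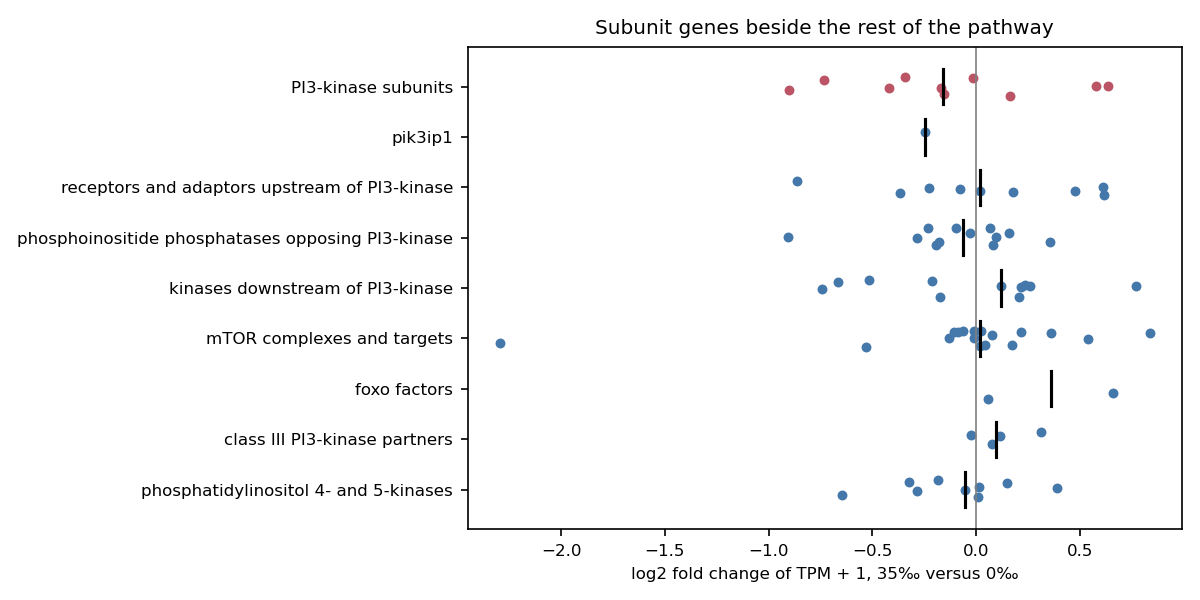
Log2 fold change of TPM + 1 in 35‰ versus 0‰ (x axis) for the subunit genes (red) and for the tested genes of 8 lists of the pathway (blue), one row per list; black bars are medians. The far point at −2.29 in the mTOR row is eif4ebp1.

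Upstream of the kinase, 9 receptors and adaptors were tested, with a median log2 fold change of 0.02 in 35‰ versus 0‰. The adaptor gene shc1 had a log2 fold change of 0.62 in 35‰ versus 0‰ (limma adjusted p = 0.37), near the 0.64 of pik3cb. Its TPM was 8.61 and 9.05 at 35‰ against 5.86 and 4.98 at 0‰. At 18‰ shc1 had 6.15 and 6.31 TPM, above both 0‰ libraries, where pik3cb overlapped. The docking protein gene gab2 went the other way, with 0.38 and 0.78 TPM at 35‰ against 1.62 and 2.1 at 0‰ (log2 fold change −0.86, limma adjusted p = 0.344). The one inhibitor of the catalytic subunit in the table, pik3ip1, was between 1.39 and 2.49 TPM and overlapped in every comparison.

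Of 12 phosphatases that remove phosphate from phosphoinositides, 1 was separate upward and 0 downward in 35‰ versus 0‰. Of all genes tested, 18.9% were separate upward and 20% downward. The phosphatases had a median log2 fold change of −0.06. The phosphatase gene inpp5d had the largest difference, with 6.16 and 9.48 TPM at 35‰ against 25 and 9.14 at 0‰ (log2 fold change −0.91, limma adjusted p = 0.49), and the 2 groups overlapped. The one separate upward was MTMR4, a myotubularin family gene, with 10.4 and 8.32 TPM at 35‰ against 6.78 and 7.34 at 0‰.

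Downstream, 11 genes were tested, all for kinases except PHLPP2, a phosphatase that acts on Akt. Their largest differences in 35‰ versus 0‰ were in the SGK family, whose members are activated through PI3-kinase and act on ion transport in mammals. SGK1 had 104 and 109 TPM at 35‰ against 57.5 and 67.2 at 0‰ (log2 fold change 0.77, limma adjusted p = 0.468), and 95.3 and 198 TPM at 18‰. The related sgk3 had 4.52 and 5.62 TPM at 35‰ against 12.8 and 6.45 at 0‰ (log2 fold change −0.74, limma adjusted p = 0.451). Both 35‰ libraries of SGK1 exceeded both 0‰ libraries, and those of sgk3 were below both. The Akt kinase gene akt3a, named after its values were seen, had 1.45 and 3.15 TPM at 35‰ against 5.86 and 7.62 at 18‰, with 4.34 and 3.8 at 0‰.

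Of 17 genes for mTOR complexes and their targets, among them a pair both named mtor, eif4ebp1 came nearest to the threshold. This translation repressor gene was listed at 0 in 35‰ replicate 1 and had 0.52 TPM in 35‰ replicate 2, against 4.35 and 5.83 TPM at 0‰ and 4.65 and 3.36 at 18‰. In 35‰ versus 0‰ the log2 fold change was −2.29 (standard error 0.32, limma adjusted p = 0.0568), and in 35‰ versus 18‰ it was −2.01 (limma adjusted p = 0.0863). An entry of 0 in the table can also be a failed estimate. The table has a second gene of this name, written EIF4EBP1 (ENSPREG00000021678), with 11.4 and 6.07 TPM at 35‰ against 7.87 and 9.84 at 0‰ (log2 fold change −0.06, limma adjusted p = 0.957), and how reads were divided between the pair is not stated. The gene rictora, for a subunit of an mTOR complex that phosphorylates Akt and SGK, had 4.36 and 6.88 TPM at 35‰ against 2 and 3.42 at 0‰ (log2 fold change 0.84, limma adjusted p = 0.38).

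The 2 foxo genes tested, for transcription factors that Akt holds out of the nucleus, were foxo4 and foxo1a. The foxo4 gene had 25.8 and 32.2 TPM at 35‰ against 13.8 and 23.1 at 0‰ (log2 fold change 0.66, limma adjusted p = 0.47), and foxo1a overlapped, with 4.02 and 18.7 TPM at 35‰ against 7.27 and 9.99 at 0‰. The 4 class III partners tested had a median log2 fold change of 0.10 and none was separate between 35‰ and 0‰, where 18.9% of all genes tested were separate upward and 20% downward. The largest changes among them were 0.31 for ambra1b and 0.11 for rubcn. Among 9 genes for kinases that phosphorylate phosphatidylinositol or its phosphates at other positions, pip5k1ba had 3.01 and 2.58 TPM at 35‰ against 5.36 and 4.53 at 0‰ (log2 fold change −0.65, limma adjusted p = 0.414), with 9.73 and 6.79 TPM at 18‰. The pip4k2ca gene overlapped between 35‰ and 0‰, with a log2 fold change of 0.39.

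Likeness to pik3cb was measured as the root mean square difference of log2(TPM + 1), each gene centred on its mean over the 6 libraries, and is a description over libraries that share their scaling. The 5 genes closest to pik3cb were nipa2, a magnesium transporter gene (0.06), waca (0.06), atp5f1b, for the catalytic beta subunit of ATP synthase (0.06), parp3 (0.07) and tmem254 (0.07). The TPM of atp5f1b was 523 and 588 at 35‰, against 315 and 346 at 0‰ and 383 and 339 at 18‰. Of the subunit genes, pik3c2b was the nearest, at 0.18 and in place 332 of 7896. The other 8 lay between place 3566, for pik3r4, and place 7591, for pik3cd.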

How the data were processed

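RNA from guppy intestine was sequenced as paired-end reads in 6 libraries, which the labels place at 0%, 18% or 35% salt with replicate numbers, read as permille after the series design. STAR alignment and StringTie quantification by the authors gave the deposited TPM values, scaled by them for transcript length and library size. The versions, genome build and annotation are not given in the sources used here, and no coordinates are printed. Because TPM are not counts, limma 3.58.1 in R 4.3.3 replaced DESeq2, with a pseudocount of 1, a mean-variance trend and one fit over the 6 libraries, and the fold change and false discovery cutoffs of the study were kept. Ratios and figures were computed in Python 3.11.15 with numpy 2.4.6, pandas 2.3.3 and matplotlib 3.10.9. The depth is unknown, so no counting error is given, and the spread between 2 libraries is the only error.

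The subunit genes, pathway lists and marker lists were chosen with earlier results of these data known. Single genes named are every subunit gene, the 2 tested genes of each pathway list with the largest absolute change in 35‰ versus 0‰, and the 5 genes closest to pik3cb. The ptprc and spi1b values were chosen after they were seen. The marker lists also covered endothelium, with 5 of 8 markers in the table, and smooth muscle, with 6 of 10. Endothelium sums were 20.25 and 22.05 TPM at 0‰, 33.5 and 25.1 at 18‰, and 19.5 and 17.6 at 35‰. Smooth muscle sums were 161 and 178 TPM at 0‰, 313 and 250 at 18‰, and 237 and 292 at 35‰. In 35‰ versus 0‰, 4 of the 6 smooth muscle markers were separate upward (18.9% of all genes tested). Of the 5 endothelium markers, 3 were separate downward (20%). Alternatives covered the pseudocount, the filter, scaling, the trend, the replicate block, the libraries fitted and each library left out.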

Additional observations from a re-analysis of the deposited data

How the results depend on the processing

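No subunit gene was called under any alternative run. With all libraries kept, 198 of 201 subunit fold changes had their original sign, and with 1 library left out 159 of 180 did. Many of these could not change. With all libraries kept, only the pseudocount and the scaling altered a fold change. The filter, the trend, the replicate block and the choice of libraries fitted left it as it was. Leaving out a library from outside the comparison did so too. These counts therefore overstate how steady the signs were. For pik3cb in 35‰ versus 0‰, the 7 alternatives other than leaving 1 library out gave log2 fold changes of 0.64 to 0.67. Their limma adjusted p was 0.303 to 0.599. With 1 library left out, the log2 fold change of pik3cb was 0.50 to 0.78. In 18‰ versus 0‰, median-ratio scaling changed the sign of pik3r4 (−0.032) and pik3r2 (−0.055), and in 35‰ versus 18‰ a pseudocount of 0.1 changed that of pik3cd (−0.0011). The cause was not tested.

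The number of genes called over the whole table moved more. In 18‰ versus 0‰ it was 1, and 0 with a mean TPM of at least 5, with median-ratio scaling, with the replicate block or with only the 4 libraries compared. In 35‰ versus 0‰ it was 15, but 1 with no filter and 24 with a mean TPM of at least 5, which keeps 7 of the 10 subunit genes. In 35‰ versus 18‰ it was 25, but 4 with no filter and 41 with only the 4 libraries. With the replicate block these last comparisons gave 16 and 25 calls. Deviations of libraries with the same number correlated at 0.061 (0‰ and 18‰), −0.039 (0‰ and 35‰) and 0.05 (18‰ and 35‰), so the numbers were not taken as pairs.

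With 1 library left out, which leaves a group with a lone library assumed to vary like the others, calls numbered 0 to 11 in 18‰ versus 0‰ (most without 0‰ replicate 1), 3 to 89 in 35‰ versus 0‰ (fewest without 35‰ replicate 1, most without 0‰ replicate 2) and 3 to 45 in 35‰ versus 18‰ (fewest without 35‰ replicate 1, most without 35‰ replicate 2). The log2 fold changes whose sign turned in 18‰ versus 0‰ ranged from −0.13 to 0.46 for pik3c2b, −0.25 to 0.19 for pik3r1, −2.02 to 0.21 for pik3cd, −0.32 to 0.13 for pik3cg, −0.83 to 0.52 for PIK3R5, −0.028 to 0.25 for pik3cb and −0.30 to 0.32 for pik3r2. In 35‰ versus 0‰ they ranged from −0.37 to 0.065 for pik3r5, −0.33 to 0.30 for pik3c2g, −2.02 to 0.21 for pik3cd, −0.39 to 0.053 for pik3r4 and −0.25 to 0.57 for pik3r2. In 35‰ versus 18‰ they ranged from −0.32 to 0.32 for pik3cd, −0.44 to 0.0049 for pik3r4 and −0.26 to 0.56 for pik3r2. The family median in 35‰ versus 0‰ ranged from −0.36 to 0.0040. The difference in the pik3cb share was −4.02 to 25.5 points in 18‰ versus 0‰ and 6.58 to 36.1 in 35‰ versus 0‰, and that in the regulatory to catalytic ratio −0.262 to 0.721 and −0.599 to 0.385. With 2 libraries a group and no read depth in TPM, no subunit gene's difference was resolved.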
